A study of Mus musculus with 9 samples.

Results

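The angiotensin and endothelin system was followed in heart RNA through 8 genes, which were taken by symbol from the 13890 genes counted. They were angiotensinogen (Agt), angiotensin-converting enzyme (Ace), the angiotensin receptor Agtr1a, the endothelins Edn1 and Edn3, endothelin-converting enzyme (Ece1) and the endothelin receptors Ednra and Ednrb. All 8 genes passed the filter on low counts. The hearts came from male NSG mice, an immunodeficient NOD-scid strain that also lacks Il2rg and accepts human tumour cells, aged 8 weeks at surgery and euthanized about 3 weeks later. Sham mice (S, n = 3, animals 2, 3 and 5) had saline injected into the spleen. The tumour group (T, n = 3, animals 11, 12 and 15) is labelled as given HCT116, a human colorectal cancer cell line, by the same route. The treated group (A + T, n = 3, animals 20, 21 and 22) is labelled as HCT116 hosts that also received weekly ACVR2B/Fc, a soluble decoy receptor for activins, myostatin and related ligands. All hearts were of the same strain and sex, and no library analysed here was labelled as from tumour-free mice on the decoy receptor.

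The label of the T libraries needs a caution that bears on every direction given for them. Across the study's gene list, fold changes computed from these libraries against S lay nearest to the listed comparison of ACVR2B/Fc-treated sham mice with sham, and not to that of tumour hosts with sham. A heading of that list and a label of the libraries cannot be told apart as the source of the mismatch. Single genes do not settle it: Serpina3n, an acute-phase gene, was 3.32 higher on the log2 scale in T vs. S and Bmp10, an atrial growth factor, was 6.07 lower. The group is therefore called by its label, and which treatment these mice received was not settled here. The comparison of A + T with S takes from these libraries only their share in the estimate of the spread, in the filter on low counts and in the scaling. The label of the A + T libraries was not checked against the study's gene list.

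Angiotensinogen is a secreted precursor, made mainly by liver, that is cut by renin and then by angiotensin-converting enzyme to give angiotensin II. Endothelins are short peptides cut from precursors by endothelin-converting enzymes, and endothelin-1 is released chiefly by endothelial cells. Both systems act through receptors coupled to Gq proteins and raise calcium in smooth muscle and cardiomyocytes, and both are known for vasoconstriction and for their part in cardiac remodelling.

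The counts on genes summed to between 12392222 and 19732471 per library. A count of 3, the level under which nothing was read, corresponded to between 0.152 and 0.242 CPM, so each of the 8 genes lay well above it. Ribosomal RNA (Rn45s) made up 4.57% to 19.6% of the counts, and levels are therefore given as CPM scaled by TMM factors, which correct for such differences in composition. Exact permutation of 3 against 3 animals reaches no P-value below 0.1, and the tests below come from edgeR's quasi-likelihood test fitted across 13364 genes. The heart muscle markers were abundant, with 9 of 9 cardiomyocyte genes well above the floor and a summed level between 51354 and 73983 CPM in every library. RNA was taken from whole tissue, so fewer cells of a type and less RNA per cell cannot be told apart in any result that follows.

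The promoters of Agt and Ednra are shown because these genes rose most in the libraries labelled T, and that of Ace because it fell most. Each stretch holds the 250 bases before the RefSeq start site on GRCm38.p6, the assembly that mm10 names. Agt lies on chromosome 8 from 124556534 to 124569706 on the minus strand, Ednra on chromosome 8 from 77663031 to 77724464 on the minus strand, and Ace on chromosome 11 from 105967945 to 105989964 on the plus strand. Capitals mark matches to 8 short motifs searched on both strands.
Agt, chr8:124569707-124569956, minus strand: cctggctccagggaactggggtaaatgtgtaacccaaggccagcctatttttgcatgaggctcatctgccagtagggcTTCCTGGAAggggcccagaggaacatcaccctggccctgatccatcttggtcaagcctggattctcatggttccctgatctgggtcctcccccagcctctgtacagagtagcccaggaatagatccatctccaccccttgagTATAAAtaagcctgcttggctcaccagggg
Ednra, chr8:77724453-77724702, minus strand: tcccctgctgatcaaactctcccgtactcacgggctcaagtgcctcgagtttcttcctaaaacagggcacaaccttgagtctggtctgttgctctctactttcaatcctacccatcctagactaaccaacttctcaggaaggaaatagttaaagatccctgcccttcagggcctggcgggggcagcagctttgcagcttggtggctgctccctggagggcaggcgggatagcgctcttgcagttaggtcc
Ace, chr11:105967698-105967947, plus strand: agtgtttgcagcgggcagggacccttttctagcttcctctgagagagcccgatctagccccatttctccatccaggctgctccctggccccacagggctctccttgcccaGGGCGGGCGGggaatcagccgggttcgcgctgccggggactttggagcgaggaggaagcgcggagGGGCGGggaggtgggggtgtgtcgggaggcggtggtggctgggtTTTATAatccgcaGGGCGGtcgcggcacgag

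In Agt the capitals mark the letters TTCNNNGAA, the pattern bound by STAT factors, from 172 to 164 bases before the start site, and a TATA box, searched as TATAAA, from 30 to 25 bases before it. The STAT pattern stood in 7.02% and the TATA box in 12.4% of the 32851 promoters of the same length. In Ace they mark 4 matches to the Sp1 pattern GGGCGG, 2 of which overlap, and a TATA box read on the opposite strand, whereas 32.7% of all promoters held the Sp1 pattern. The Ednra stretch held none of the 8 motifs, the others being the glucocorticoid receptor palindrome and the half-site TGTTCT that it contains, TGACTCA for AP-1, AGATAA for GATA factors and GTCTAGAC for Smads. They stood in 0.00913%, 16.1%, 4.46%, 9.99% and 0.167% of promoters. RefSeq gives Ace a second start site inside the gene, from which a shorter testis form is known to arise, and the counts per gene do not separate the forms. Ece1 has 4 start sites in RefSeq, and its counts join them likewise.

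In T vs. S, 4 of the 8 genes passed a Benjamini-Hochberg adjusted P-value of 0.05, with Agt and Ednra higher and Ace and Ece1 lower. Over all genes tested, 21.2% passed, 10.3% higher and 11% lower. At the study's thresholds, fold changes of 1.5 or more with an unadjusted P-value below 0.05, Agt, Ednra and Ace passed, where 14.2% of all genes did, 5.2% higher and 9.01% lower. The libraries of the groups did not overlap for 5 of the 8 genes, against 42.6% of all genes. The median log2 fold change of the 8 genes was 0.13 and that of all genes tested 0.00. The number past the adjustment was 2 without animal 2 of S and also without animal 11 of T, when Ace and Ece1 were lost.

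In A + T vs. T, the genes past the adjustment were Agt and Ednra, both lower in A + T, where 5.88% of all genes passed, 3.09% higher and 2.79% lower. The same 2 genes passed the study's thresholds, against 8.11% of all genes, 6.50% higher and 1.61% lower. Their groups did not overlap, and neither did those of Ace, against 25.4% of all genes. The median log2 fold change of the 8 genes was −0.09, beside 0.01 for all genes. The T libraries stand in both comparisons, so a high value in T alone gives a rise in the former and a fall in the latter.

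In A + T vs. S, none of the 8 genes passed the adjustment in edgeR's quasi-likelihood test, where 8.31% of all genes did (4.67% higher and 3.64% lower), while 3 had an unadjusted P-value under 0.05 (Agt, Ednrb and Ece1) and DESeq2 called 1 (Agt). Agt passed the study's thresholds, against 8.91% of all genes, 5.82% higher and 3.09% lower. Libraries of the groups did not overlap for Agt, Ednra and Ednrb, against 32.4% of all genes. The median log2 fold change of the 8 genes was 0.11, and for all genes it was 0.00.

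**Figure D1:**
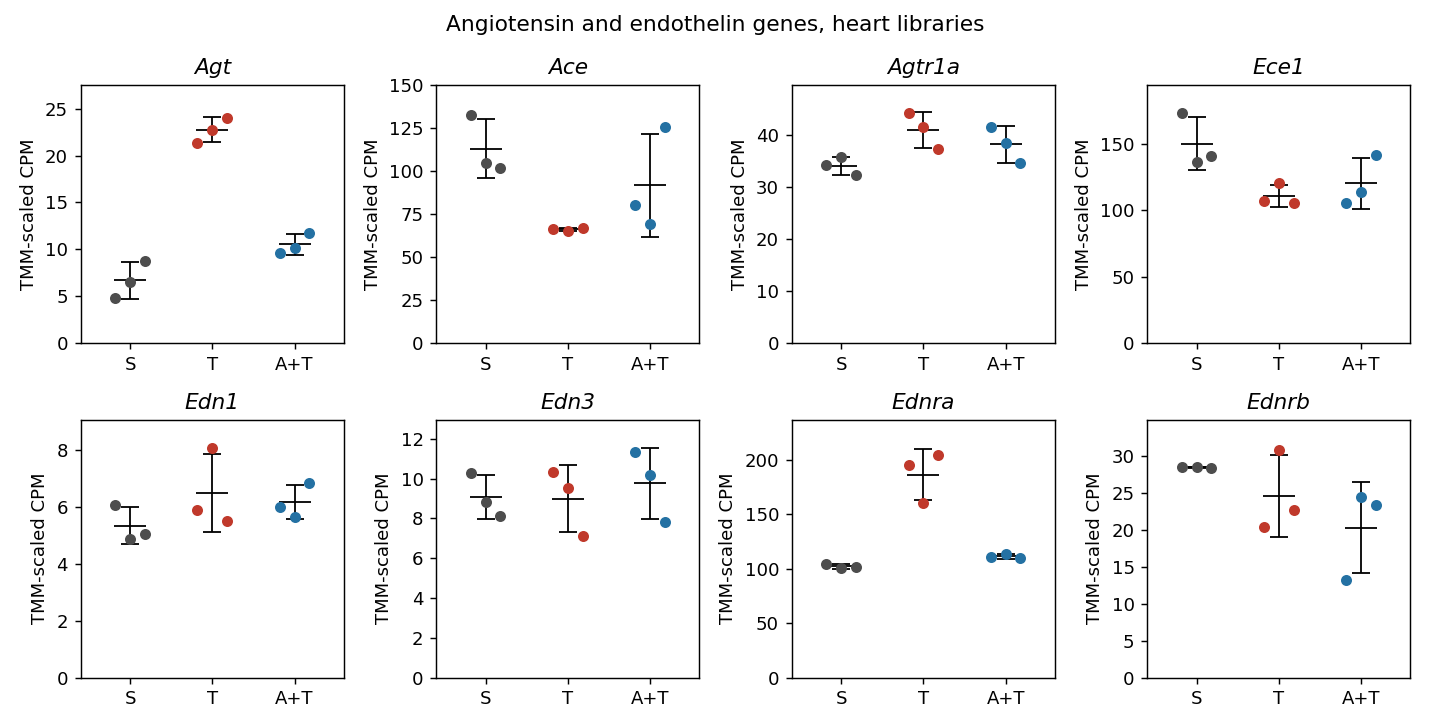
TMM-scaled CPM of the 8 genes in each of the 9 heart libraries, by group as labelled, with the mean and the SD of 3 animals as bars and every axis starting at 0. Agt lies between 21.4 and 24.05 in T and at 11.8 or less in every other library, and Ednra lies between 160 and 204 in T and at 113 or less elsewhere.

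**Figure D2:**
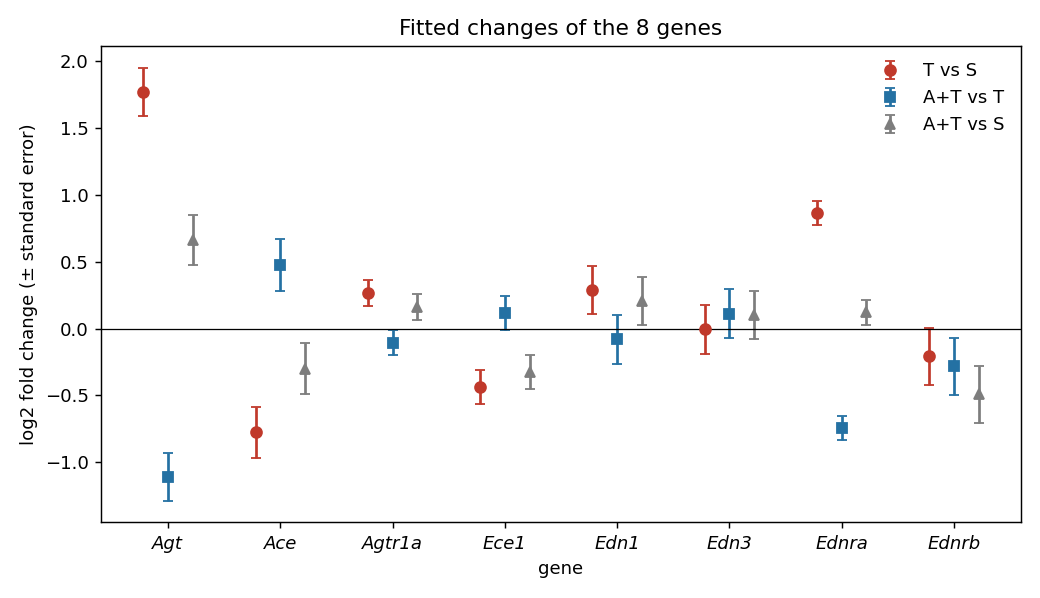
Fitted log2 fold change of each gene with its standard error, for the 3 comparisons between groups of 3 libraries. Agt and Ednra stand at 1.77 and 0.87 in T vs. S and at −1.11 and −0.74 in A + T vs. T, while Edn1 and Edn3 stay within 0.29 of 0 in each comparison.

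Among the precursors, Agt changed most. It measured 4.81, 6.55 and 8.75 CPM in S animals, 21.4, 22.8 and 24.05 in libraries with the T label, and 9.65, 10.1 and 11.8 in A + T. The 3 groups did not overlap, with S lowest, A + T between and T highest. T vs. S gave a log2 fold change of 1.77 (standard error, SE, 0.18, adjusted P = 0.000232 from edgeR), a 3.41-fold rise. From T to A + T it fell by 1.11 on the log2 scale (SE 0.18, adjusted P = 0.00868 from edgeR), or 2.16-fold. Against S, A + T stood 0.66 higher (SE 0.19, adjusted P = 0.0536 from edgeR), which misses the adjusted threshold. The adjusted P-value of that difference lay between 0.0157 and 0.145 over 19 alternatives, and it was 0.0238 without animal 5 of S, the S library with the most Agt. Both other calls of Agt held under each of the 19.

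Adipocytes are a known source of angiotensinogen, so the adipocyte markers were set beside it. Of the 8 listed, 5 were counted (Adipoq, Plin1, Cfd, Cidec and Adig) and 3 could be tested, and Adipoq (1.79), Cfd (2.54) and Plin1 (0.06) did not pass in T vs. S on the log2 scale (adjusted P = 0.329, 0.187 and 0.966 from edgeR). Their summed level was 1.38 to 19.0 CPM in S, 1.59 to 78.7 in those of T, and 1.72 to 8.07 for A + T, and the groups overlapped. Animal 15 of T had the lowest adipocyte sum of its group, 1.59 CPM, and the highest Agt of all libraries, and the part of adipose tissue in the level of Agt was not tested.

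The endothelin genes were low and did not pass in any comparison. Edn1, the endothelin of vessel walls, measured 6.08, 4.87 and 5.06 CPM in S animals, 5.89, 8.08 and 5.52 in those of T, and 5.999, 5.67 and 6.84 for A + T. Animal 12 of T stood highest and the groups overlapped. Its log2 fold change was 0.29 in T vs. S (SE 0.18, adjusted P = 0.282 from edgeR), −0.08 in A + T vs. T (adjusted P = 0.833 from edgeR) and 0.21 in A + T vs. S (adjusted P = 0.498 from edgeR). Edn3, an endothelin that prefers Ednrb and is known from neural crest development, measured 10.3, 8.83 and 8.10 CPM in S animals, 10.3, 9.51 and 7.11 in those of T, and 11.3, 10.2 and 7.82 for A + T. These 3 ranges largely coincide. Its log2 fold change was −0.01 in T vs. S (SE 0.18, adjusted P = 0.984 from edgeR), and A + T lay at 0.11 relative to T and 0.10 relative to S. A P-value that misses the threshold does not show that the endothelins were level.

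Both converting enzymes were lower in the libraries labelled T. Ace, which cuts angiotensin I to angiotensin II and sits on the surface of endothelial cells, measured 133, 105 and 102 CPM in S animals, 66.2, 65.1 and 67.0 in those of T, and 80.4, 69.1 and 126 for A + T. The T libraries lay within 2 CPM of each other and below all others, whereas A + T ran from close to T up into the range of S. T vs. S gave a log2 fold change of −0.78 (SE 0.19, adjusted P = 0.0172 from edgeR), 1.71-fold lower. Without animal 2 of S the adjusted P-value was 0.0749, and without animal 11 of T it was 0.0584. Relative to T, A + T stood 0.48 higher (SE 0.19, adjusted P = 0.178 from edgeR), and relative to S it stood at −0.30 (SE 0.19, adjusted P = 0.345 from edgeR).

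Animal 22 decided the level of Ace in A + T. Without it, the log2 fold change was 0.18 in A + T vs. T and −0.59 in A + T vs. S (adjusted P = 0.0182 from edgeR). That library also held airway markers, 1451 CPM summed over the 4 of 9 listed genes that were counted, against 1.86 and 1.51 in the other A + T libraries, 0.868 to 2.74 in S and 2.04 to 104 in T. Of these, Scgb1a1 and Sftpb were at 0 in some libraries, and Scgb3a1, the gene of the list that could be tested, was higher in T vs. S (4.29, adjusted P = 0.0236 from edgeR), with 1.12, 23.4 and 1.40 CPM in T, so that animal 12 carries most of its level there. Lung is known to be rich in Ace. Animal 12 of T, with 104 CPM of airway markers, had the lowest Ace of all libraries. Its sum came from Scgb1a1 (80.0 CPM) and Scgb3a1 (23.4), with Sftpb at 0.59 and Ager at 0.42. In animal 22, Sftpb was at 199 and Ager at 173 CPM, so these sums are made up differently. The part of lung tissue in the Ace of animal 22 was not tested.

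Ece1, the enzyme that releases active endothelin, measured 173, 136 and 141 CPM in S animals, 107, 120 and 105 in those of T, and 105, 114 and 142 for A + T. Every T library lay below every S library, and A + T overlapped both. T vs. S gave a log2 fold change of −0.44 (SE 0.13, adjusted P = 0.0339 from edgeR), 1.36-fold lower and under the study's limit of 1.5. This call was lost without animals 2 or 5 of S or animals 11 or 15 of T and with library size as the only scaling, where the adjusted P-value lay between 0.0592 and 0.137. The log2 fold change was 0.12 in A + T vs. T (adjusted P = 0.632 from edgeR) and −0.32 in A + T vs. S (SE 0.13, adjusted P = 0.142 from edgeR). Without animal 22 of A + T the latter was −0.45 (adjusted P = 0.0387 from edgeR).

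The receptors did not move together. Ednra, the endothelin receptor of smooth muscle and cardiomyocytes, measured 105, 101 and 101 CPM in S animals, 195, 160 and 204 in those of T, and 111, 113 and 109 for A + T. S and A + T each spread over less than 5 CPM, and every T library stood far above both. T vs. S gave a log2 fold change of 0.87 (SE 0.09, adjusted P = 0.00027 from edgeR), a 1.82-fold rise. From T to A + T it fell by 0.74 on the log2 scale (SE 0.09, adjusted P = 0.00342 from edgeR). In A + T vs. S the groups did not overlap, but the log2 fold change of 0.12 (SE 0.09) did not pass (adjusted P = 0.43 from edgeR). Both calls held under each of the 19 alternatives.

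Ednrb, the endothelin receptor of endothelium, which also clears endothelin-1, measured 28.5, 28.5 and 28.4 CPM in S animals, 20.3, 30.9 and 22.6 in those of T, and 13.2, 24.4 and 23.4 for A + T. The S libraries were almost equal, and both other groups were widely spread. No comparison passed, at −0.21 on the log2 scale in T vs. S (SE 0.21, adjusted P = 0.523 from edgeR), −0.28 in A + T vs. T (SE 0.22, adjusted P = 0.478 from edgeR) and −0.49 in A + T vs. S (SE 0.21, adjusted P = 0.177 from edgeR). Without animal 20, the lowest library, A + T vs. S was −0.25. Markers of the atria were set beside it. Their 6 genes, all counted, summed to 3155, 3211 and 3156 CPM in S animals, 1606, 4782 and 876 in those of T, and 811, 1523 and 2159 for A + T. Animal 12 of T was highest and animal 20 of A + T lowest in both measures. The largest part of the atrial sums was Nppa, at 1865 to 2013 CPM in S. Nppa, Sln and Bmp10 were lowest in animal 20, but Myl7, Myl4 and Dkk3 in animal 15 of T (23.2, 28.9 and 14.4 CPM). Each of these genes but Bmp10 (1.13 CPM) was highest in animal 12. The part of atrial tissue in the level of Ednrb was not tested.

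Agtr1a, the main angiotensin II receptor of the rodent heart, measured 34.2, 35.7 and 32.3 CPM in S animals, 44.2, 41.4 and 37.2 in those of T, and 41.6, 38.4 and 34.5 for A + T. Every T library lay above every S library, while A + T overlapped both. The log2 fold change was 0.27 in T vs. S (SE 0.09, adjusted P = 0.0695 from edgeR), which misses the adjusted threshold, −0.10 in A + T vs. T (adjusted P = 0.56 from edgeR) and 0.16 in A + T vs. S (adjusted P = 0.304 from edgeR). The call in T vs. S was made without animal 15 of T (adjusted P = 0.0442 from edgeR), without animal 22 of A + T (0.0329) and with only S and T in the fit (0.045).

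Levels were compared between genes on the deposited log2 values, which are scaled per gene length. Averaged over the 9 libraries, Ednra stood at 5.13, Ece1 at 4.70, Agtr1a and Ace at 4.03, Agt at 2.66, Ednrb at 2.45, Edn3 at 1.64 and Edn1 at 1.36. By group means, the receptors and enzymes lay above both endothelins in every group, but in animal 20 of A + T, Ednrb (1.60) lay below Edn3 (1.93). In S, Ece1 (4.95 ± 0.19, SD, n = 3) lay above Ednra (4.80 ± 0.03) in every library, though in animal 3 only at 4.82 beside 4.78. Edn3 (1.61 ± 0.17) lay above Agt (1.84 ± 0.42) in animal 2 and below it in animals 3 and 5. These differences were not tested. Ednra came first in T, at 5.66 ± 0.19, and in A + T, at 4.92 ± 0.03 beside 4.62 ± 0.22 for Ece1. In T, Agt, at 3.63 ± 0.08, was level with Ace at 3.64 ± 0.02.

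**Figure D3:**
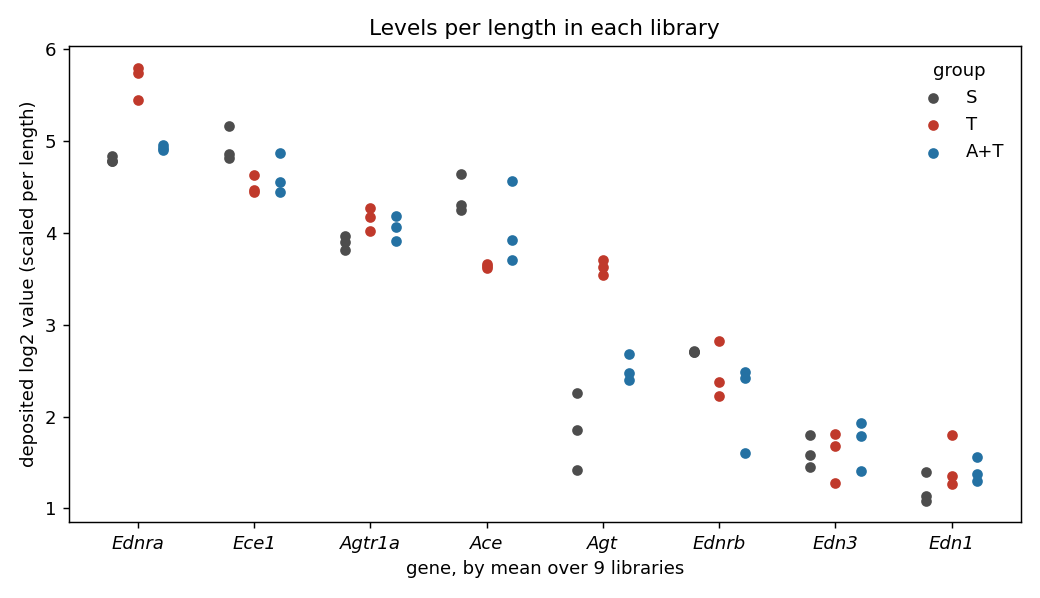
Deposited log2 values, scaled per gene length by the authors, of the 8 genes in each library, with genes ordered by their mean over the 9 libraries and groups as labelled. Ednra leads with a mean of 5.13 and Edn1 is last at 1.36, and Agt in T reaches the level of Ace.

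Differences between pairs of these genes within a library do not depend on how the libraries are scaled. The pairs were chosen after their values had been seen and are given without a test. Ednra exceeded Ednrb per length by 2.13, 2.07 and 2.09 on the log2 scale in S animals, by 3.51, 2.63 and 3.42 in those of T, and by 3.32, 2.47 and 2.48 for A + T. The balance of the endothelin receptors was thus further towards Ednra in every T and every A + T library than in any S library. Ednra exceeded Agtr1a by 0.82 to 0.97 in S animals, 1.27 to 1.78 in those of T, and 0.74 to 0.99 for A + T, so that only T stood apart.

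Of 19 other genes of angiotensin formation, breakdown and signalling, 14 were counted and 11 tested. Renin (Ren1), Agtr1b and Agtr2 were not analysed here, and Mas1, the receptor for angiotensin-(1-7), had at most 14 counts in a library and was removed by the filter. In T vs. S, 3 of the 11 were lower and 1 higher, beside 21.2% of all genes, and in A + T vs. T, 3 were higher and 1 lower, beside 5.88%. In A + T vs. S none passed in edgeR's quasi-likelihood test. The peptidases that break down angiotensins moved most. Anpep, which trims angiotensin III, fell by 1.14 on the log2 scale in T vs. S (SE 0.21, adjusted P = 0.00448 from edgeR) and rose by 0.95 in A + T vs. T (adjusted P = 0.0315 from edgeR). Mme (neprilysin), which degrades angiotensins, endothelins and natriuretic peptides, fell by 1.03 (SE 0.10, adjusted P = 0.00019 from edgeR) and rose by 0.68 (adjusted P = 0.00721 from edgeR). Nln, another peptidase, rose by 0.28 in T vs. S (adjusted P = 0.0397 from edgeR). Against T, Enpep, which converts angiotensin II to angiotensin III, rose by 0.62 (adjusted P = 0.026 from edgeR), and Thop1 fell by 0.39 in A + T (adjusted P = 0.049 from edgeR). When single animals were left out, between 2 and 4 of these genes were lower in T vs. S and between 1 and 3 higher in A + T vs. T (1 without animals 11, 15 or 20). None was lower in A + T vs. T in any of the 9 such fits, and none was higher in T vs. S in 7 of them, all but those without animals 20 and 22.

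Of the other endothelin genes, Edn2 was not analysed here and only Ece2 was counted. This second converting enzyme measured 3.82 CPM in S animals, 2.46 in those of T, and 3.33 for A + T on average, at −0.62 on the log2 scale in T vs. S (SE 0.21, adjusted P = 0.0554 from edgeR). None of the 5 kinin genes was analysed.

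Receptors of both systems signal through Gq, and 26 of the 27 listed genes of this pathway and its brakes could be tested. The median log2 fold change of these 26 was −0.19 in T vs. S, beside 0.00 over all genes. In that comparison 5 were lower and none higher in edgeR's quasi-likelihood test, beside 11% and 10.3% of all genes. Rgs5 (−1.05), Rgs4 (−0.76) and Rgs3 (−0.50), which speed the switching-off of G proteins, were among them, as was the calcium release receptor Itpr1 (−0.58). Rgs5 is also a pericyte marker, and it stands in that list too. The G protein subunits Gnaq and Gna11 had log2 fold changes of −0.28 and −0.01 and did not pass. From T to A + T, Rgs4 (0.49) and the arrestin Arrb2 (0.80) were among the 3 that were higher, beside 3.09% of all genes. Arrb2 was also higher in A + T vs. S (0.62, adjusted P = 0.0348 from edgeR), where 4.67% of all genes were. When single animals were left out, between 3 and 7 were lower in T vs. S and between 0 and 4 higher in A + T vs. T, with none higher without animal 11 of T or animal 20 of A + T.

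Nitric oxide and cyclic GMP oppose both peptides in vessel walls, and 9 of the 10 genes listed for them were tested. In T vs. S, 5 were lower and 1 higher, beside 11% and 10.3% of all genes, with a median log2 fold change of −0.57. The synthases Nos2 (−1.65) and Nos3 (−0.47), the guanylate cyclase subunit Gucy1b3 (−1.0005) and the enzymes Ddah2 (−0.99) and Ddah1 (−0.50), which degrade an inhibitor of the synthases, were lower. The kinase Prkg1, the target of cyclic GMP, was higher (0.64, standard error 0.15, adjusted P = 0.0114 from edgeR). From T to A + T, Nos2 (1.02), Ddah2 (0.69) and Gucy1b3 (0.63) were higher and Prkg1 (−0.58) lower, beside 3.09% and 2.79% of all genes, and in A + T vs. S the gene past the adjustment was Nos3, which was lower (−0.54, standard error 0.11, adjusted P = 0.02 from edgeR). Without animal 2 of S or animal 11 of T, 3 were lower in T vs. S, and without animal 3 of S none was higher there. Without animal 11 none was higher in A + T vs. T. Between A + T and T, 1 gene of the list was lower without animal 21 and none in the other 8 such fits.

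**Figure D4:**
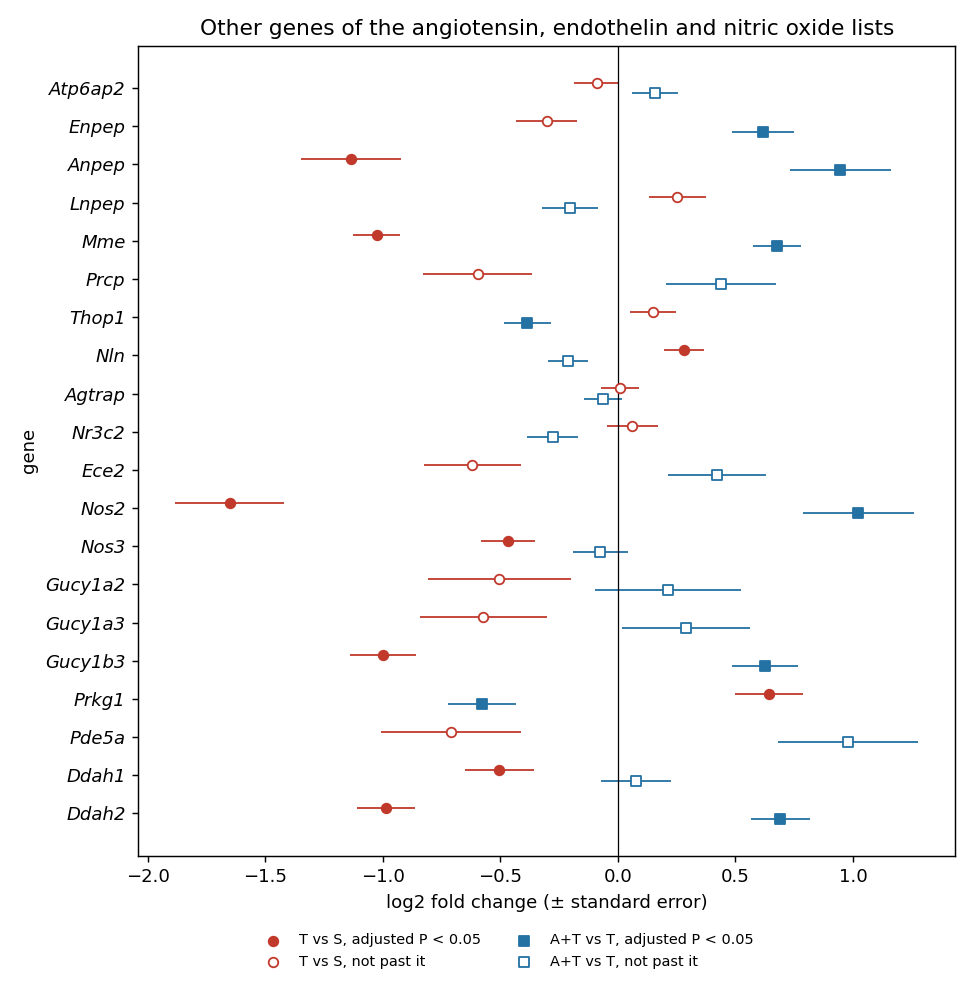
Fitted log2 fold changes with standard errors of 20 other tested genes of the angiotensin, endothelin and nitric oxide lists, for both comparisons that hold the T libraries; filled symbols passed an adjusted P-value of 0.05. Nos2, Anpep, Mme, Gucy1b3 and Ddah2 lie at or beyond −0.99 in T vs. S and above 0.6 in A + T vs. T.

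Markers of the cells that carry these genes moved with the T label, and their part in the results above was not tested. Over all genes, 11% were lower in T vs. S and 3.09% higher in A + T vs. T. All 10 fibroblast markers were lower in T vs. S, with a summed level of 3719 to 4201 CPM in S animals, 1963 to 2072 in those of T, and 2733 to 3607 for A + T, and 7 of them were higher in A + T vs. T (1 without animal 11 of T). Of 12 endothelial markers 7 were lower in T vs. S, and their sum was 1388 to 1554 CPM in S animals, 820 to 1055 in those of T, and 1010 to 1310 for A + T. Of 8 pericyte markers 5 were lower, with sums of 697 to 840, 492 to 699 and 498 to 792 CPM. The largest part of these sums was Abcc9, at 394 to 451 CPM in S and 324 to 461 in T, which did not pass (−0.07 in T vs. S). Of 6 smooth muscle markers 3 were lower (1 without animal 2 of S or animal 11 of T), with sums of 273 to 288, 143 to 200 and 169 to 202 CPM. None of these markers was at 0 in any library. Ace and Ece1 thus fell in the same libraries as the endothelial markers. Ednra rose in libraries in which the fibroblast, smooth muscle and endothelial sums were all below those of S. Of 9 cardiomyocyte markers, Actn2 (0.51), Pln (0.38) and Tnnt2 (0.34) were higher and Actc1 (−0.90) lower in T vs. S. In A + T vs. T, Actn2 alone passed and was lower (−0.61, adjusted P = 0.0247 from edgeR). Of these 9 markers, 5 had a positive and 4 a negative log2 fold change there, with a median of 0.005. Their sums were 68167 to 73983 CPM in S, 57055 to 68315 with the T label and 51354 to 69086 in A + T.

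**Figure D5:**
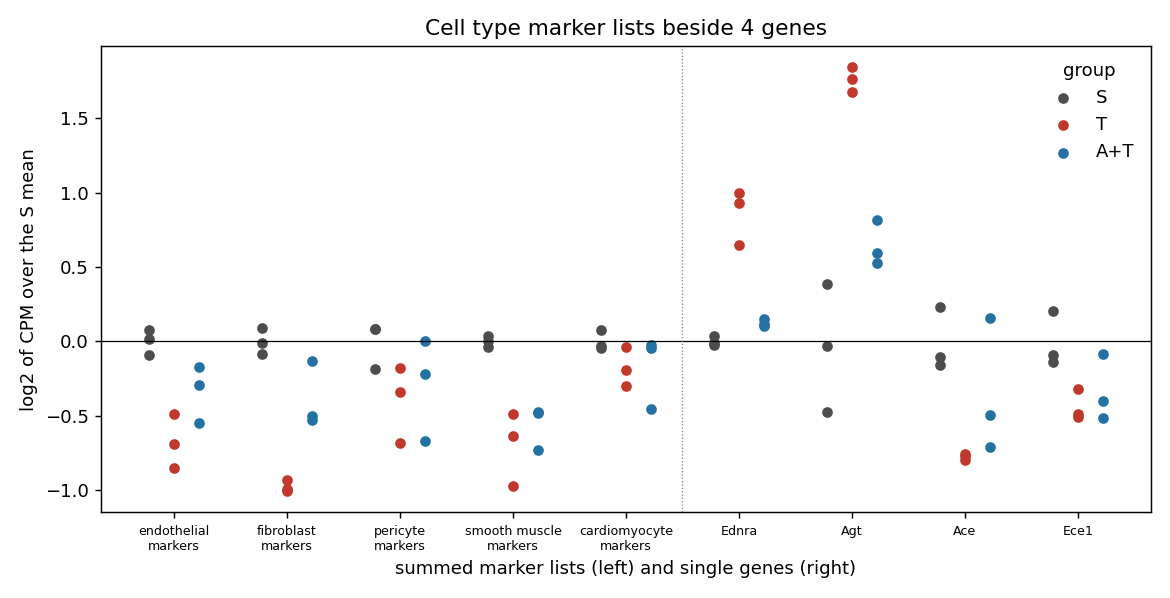
Log2 ratio to the S mean of the summed CPM of 5 cell type marker lists and of the CPM of 4 genes, in each library by group as labelled. The fibroblast, endothelial and smooth muscle sums of every T library lie below 0, as do Ace and Ece1, while Ednra and Agt of every T library lie above 0.

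Markers of the cells that use Edn3 and Ednrb in development were scarce. Of 8 Schwann cell and melanocyte markers 5 were counted, with sums between 12.1 and 22.6 CPM, of which Sox10 was lower in T vs. S (−1.21, adjusted P = 0.007 from edgeR) and S100b lower in A + T vs. S (−1.57, adjusted P = 0.0374 from edgeR). The 6 mesothelial markers summed to between 31.5 and 176 CPM and the 4 counted lymphatic markers to between 115 and 180 CPM, and the summed levels of the groups overlapped in both. Of these 2 lists, Flt4 alone passed, lower in T vs. S (−0.53) and in A + T vs. S (−0.60).

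The genes whose log2(CPM + 0.5) followed Agt most closely over the 9 libraries, by Pearson correlation among 13182 other genes, were Bcap29 (0.99), Fgl2 (0.99), Fah (0.98), Serpina3n (0.98) and Ube2b (0.98). Serpina3n encodes an acute-phase protease inhibitor, and its log2 fold change was 3.32 in T vs. S and −2.03 in A + T vs. T. Those closest to Ace were Pltp (0.97), Mtch1 (0.97), Fam129b (0.96), S100a16 (0.96) and Vcam1 (0.96), the last an adhesion molecule of endothelium, at −1.18 on the log2 scale in T vs. S. These values describe the 9 libraries, which share the differences between groups, and carry no test.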

How the data were processed

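Heart RNA of 9 mice was analysed, 3 per group as labelled. The deposited counts are raw counts per gene: per the methods, the authors mapped reads to mm10 (STAR) and assigned unique read pairs to refGene genes with featureCounts, using strand. The deposited log2 values matched log2 CPM after TMM scaling up to a constant per gene (median SD 1.66e-05), as for scaling by gene length. They were used for levels between genes and in an alternative. The table had 3443 rows without a gene name or counts, which were left out, and its genes had at least 20 counts in total. The study's filter (CPM below 0.5 in over 4 libraries) removed 526 of 13890 genes. Groups were compared with edgeR 4.0.16 (R 4.3.3), quasi-likelihood test, TMM, all 9 libraries in the same fit. A standard error is the log2 fold change over the square root of F. Pairs of libraries in a group differed by more than counting noise (chi-square per gene of at least 7.70), and were kept apart. The labels number the animals, and a library stands for 1 animal. The steps were tested on simulated data.

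The alternatives were DESeq2 1.42.0, the likelihood ratio test, limma-voom (limma 3.58.1), upper-quartile scaling, library size only, Rn45s left out, every gene kept, a minimum of 10 counts per library, a fit of only the compared groups, the deposited log2 values with limma, other thresholds, and each animal left out. The counts of the other lists without each animal were an addition made with the data in view. The genes, lists and motifs were chosen with earlier results of these data known. All 8 genes are named, with the listed genes past an adjusted P-value of 0.05 (up to 6 a list), and the 5 genes most correlated with the member that rose most and the member that fell most. Other listed genes named with values (Ece2, Gnaq, Gna11 and the adipocyte markers) were picked after their values were seen. Of the listed genes, 2 that were counted among the calls are not reported here by name. Positions are from GENCODE M21 (GRCm38), where all 8 genes matched, and promoters from RefSeq on GRCm38.p6, where all but Agtr1a matched. Figures were made with matplotlib 3.10.9 under Python 3.11.15.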

Additional observations from a re-analysis of the deposited data

How the results depend on the processing

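Of 456 values (24 log2 fold changes under 19 alternatives each), 428 kept their direction and their side of the adjusted threshold, 7 lost a call, 9 gained 1 and 12 changed sign. The sign changes were in values near 0 that passed in no fit. Edn3 in T vs. S was 3.518e-05 with DESeq2, 0.002226 with limma-voom, 0.0008026 with Rn45s left out and 0.004214 with only the groups compared, and when an animal was left out it lay between −0.12 and 0.14. Without each animal in turn, A + T vs. T lay between −0.18 and 0.11 for Edn1, −0.02466 and 0.245 for Edn3 (−0.009944 without animal 20) and −0.02018 and 0.20 for Ece1, and A + T vs. S lay between −0.01582 and 0.249 for Edn3.

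In T vs. S, the number of the 8 genes past the adjustment lay between 2 and 5 without each animal. It was 5 without animal 22 of A + T, when Agtr1a passed as well. No other alternative moved it by more than 1.5 times. At the study's P-value with no limit on the fold change it was 5 in T vs. S and 3 in A + T vs. S. In A + T vs. S, where none passed, 1 passed with DESeq2, with the likelihood ratio test, with limma-voom and at an adjusted P-value under 0.1, and between 0 and 2 without each animal. The number past the study's thresholds there lay between 0 and 2 without each animal. The causes were not tested. Over all genes, library size as the only scaling called 1636 in T vs. S (585 higher), 438 in A + T vs. T (314 higher) and 555 in A + T vs. S (324 higher), against 2838 (1371), 786 (413) and 1110 (624) as reported, upper-quartile scaling called 759 in A + T vs. T (497 higher), and DESeq2 called 1200 there (587 higher). No scaling moved the median of all genes by over 0.1 on the log2 scale. No paired analysis was possible because each library stands for a different animal and no label matches animals across groups. Counts were lowest for Edn1, Edn3 and, in S, Agt, and their values carry the widest relative counting error.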
